A study of Caenorhabditis elegans with 6 samples.

Results

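The proteasome subunit genes of the nematode Caenorhabditis elegans were taken by name alone, as all rows of the deposited expression table whose gene name is pas, pbs, rpt or rpn followed by a number. This gave 33 genes of 46950 rows: 7 alpha and 7 beta genes of the core particle, 6 ATPase genes, 9 lid genes and 4 genes for other base subunits and ubiquitin receptors. All 33 identifiers carry the same symbol in the reference gene names. The study sequenced polyadenylated RNA from whole worms exposed to terahertz waves (THz, 3 libraries) and from unexposed control worms (Control, 3 libraries). Its title names a frequency of 0.26 THz and high power. No source used here gives strain, stage, sex, exposure time, power density or temperature. Nor do the labels tell whether replicate libraries were grown separately, so each p-value reflects library-to-library spread that could be technical. All values are FPKM as the authors deposited them, that is, fragments scaled to gene length and to the counted reads of the library.

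The proteasome degrades proteins that carry ubiquitin chains. Its core particle is a barrel of outer alpha rings, which gate the entrance, and inner beta rings, which hold the proteolytic sites. The regulatory particle caps the barrel: its base contains a ring of ATPases that unfold the substrate, and its lid removes the ubiquitin. In C. elegans, as in mammals with the related factor Nrf1, a processed form of the transcription factor SKN-1 raises proteasome gene expression when proteasome activity is impaired.

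Depth recovered from the FPKM values lay between 19079472 and 21977452 counted reads per library, and the 33 genes took 0.668% to 0.781% of them. A member other than rpn-6.2 had at least 2256 reads in every library. The counting error of a single value was thus at most 2.11%, and 5.23% for rpn-6.2, whose reads ran from 365 to 467. Control 2 and Control 3 were the least alike libraries over all genes tested (Pearson r = 0.946 across genes), whereas the THz libraries correlated at 0.989 to 0.992. Replicate spread of the members followed this, with a median SD on the log2 scale of 0.12 in Control and 0.04 in THz libraries.

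Every one of the 33 genes had a higher mean in THz than in Control libraries, by small amounts, and none passed the test; 50.5% of all genes tested were higher in THz. The difference of the means ran from 1.40% (rpn-6.2) to 31.3% (pbs-7), and the median of the log2(FPKM + 1) differences was 0.12, against 0.00 over all 12174 genes tested. With limma and Benjamini-Hochberg adjustment over all genes, 0 members had an adjusted p under 0.05, as for 0.0% of all genes. The adjusted p of the members lay between 0.612 and 0.979. At an unadjusted p under 0.05 there were 4 members, pbs-7, rpt-5, rpn-1 and rpn-13, all higher in THz, where 1.86% of all genes were higher at that level and 5.86% differed in either direction. Voom on recovered reads also called 0 members.

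Groups were fully separated, with THz above, at 12 of the 33 genes, and with THz below at 0. Over all genes 6.44% were separated with THz above and 7.33% with THz below. Abundant genes as a class leaned the same way: 32 of the members have a mean of at least 50 FPKM, and of the other 2772 genes at that level 71.9% had a higher mean in THz, 14.7% had non-overlapping groups with THz above, and 4.33% were higher at an unadjusted p under 0.05. The median log2 difference of the whole class, members included, was 0.06. After scaling the libraries by their upper quartile, 6 members had non-overlapping groups with THz above, against 5.4% of all genes and 304 of the other 2772 genes of at least 50 FPKM. In that scaling 32 members had a higher mean, against 44.4% of all genes and 62.4% of those others.

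The controls weighed differently on these counts. Without Control 3 the median log2 difference of the members was 0.08 and 30 of 33 were higher in THz, with pas-1, pbs-3 and pbs-6 on the other side of 0. In that setting 52.3% of all genes and 67.0% of the other genes of at least 50 FPKM were higher. The groups did not overlap at 12 members there, against 17.8% and 31.7%. Without Control 2 the groups did not overlap at 23 members, where 16.8% of all genes and 31.2% of the other genes of at least 50 FPKM lay above in the same way. There pbs-7 passed the test, as did 0.0904% of all genes in the same direction.

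**Figure D1:**
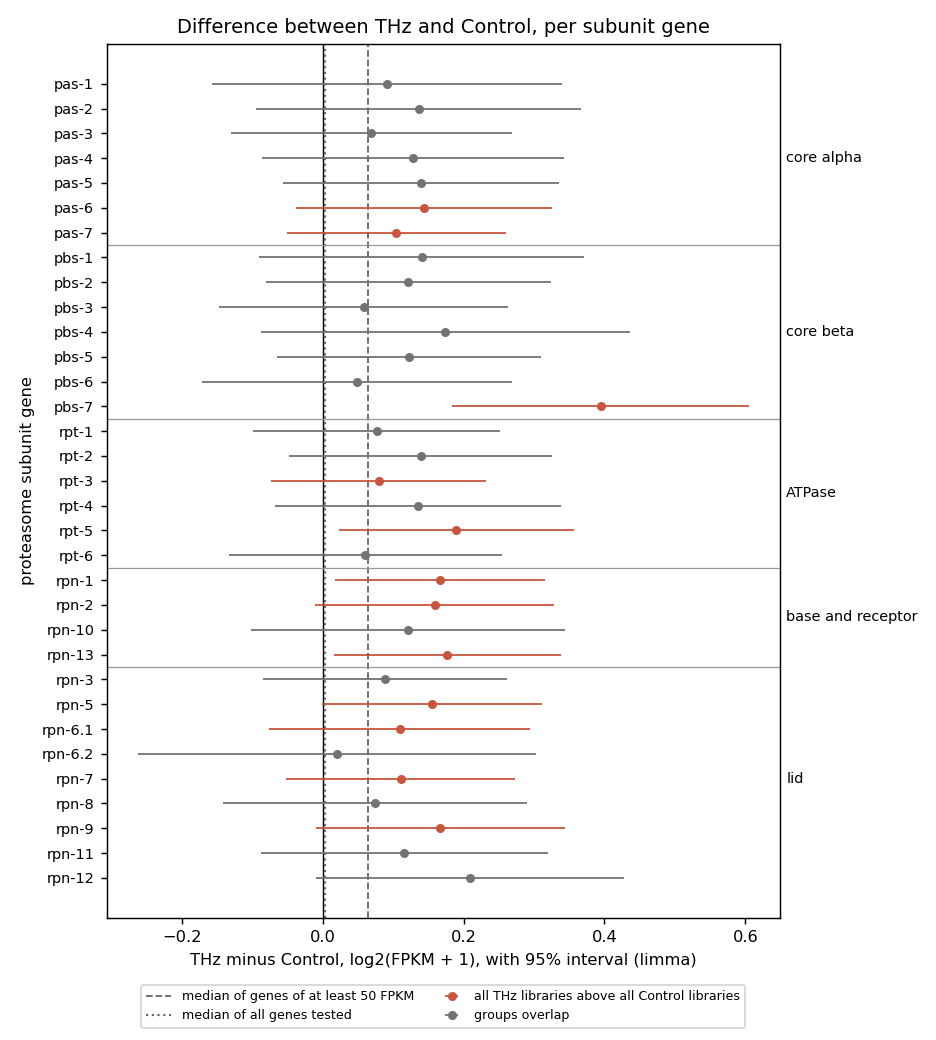
Difference between THz and Control means on the log2(FPKM + 1) scale for each of the 33 genes, with the 95% interval from limma, ordered by subassembly. All 33 points lie to the right of 0, most intervals include 0, and pbs-7 at 0.39 stands farthest from it; red points mark the 12 genes whose groups did not overlap.

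Per length, the core particle genes were the more abundant ones. Their mean FPKM over the 6 libraries had a median of 209 over the 14 genes and ran from 159 (pas-4) to 340.2 (pas-6). The 19 regulatory particle genes had a median of 153, from 13.4 (rpn-6.2) to 226 (rpn-8). Leaving out rpn-6.2, members spanned 94.5 to 340.2 FPKM, and the median over all genes tested was 15.1 FPKM. The members share this high level, but not a genomic location. They lie on 5 chromosomes, with 10 on chromosome I, 8 on III, 7 on II, 5 on V and 3 on IV. None lies on X, which holds 14.5% of all genes tested and 6.24% of the other genes of at least 50 FPKM.

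Gene models of the members are compact, with 2 to 7 exons and a counted length of 801 to 3176 bases. In the Ensembl annotation of the same build, WBcel235, 10 of them share exon bases with a neighbouring gene. The library kit was not stated to keep strand, so reads in such bases could belong to either gene. Among the other 23 genes, 23 were higher in THz and 9 had non-overlapping groups, with a median log2 difference of 0.13. Of all genes tested, 50.5% were higher and 6.44% had non-overlapping groups with THz above. For the others of at least 50 FPKM these shares were 71.9% and 14.7%.

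**Figure D2:**
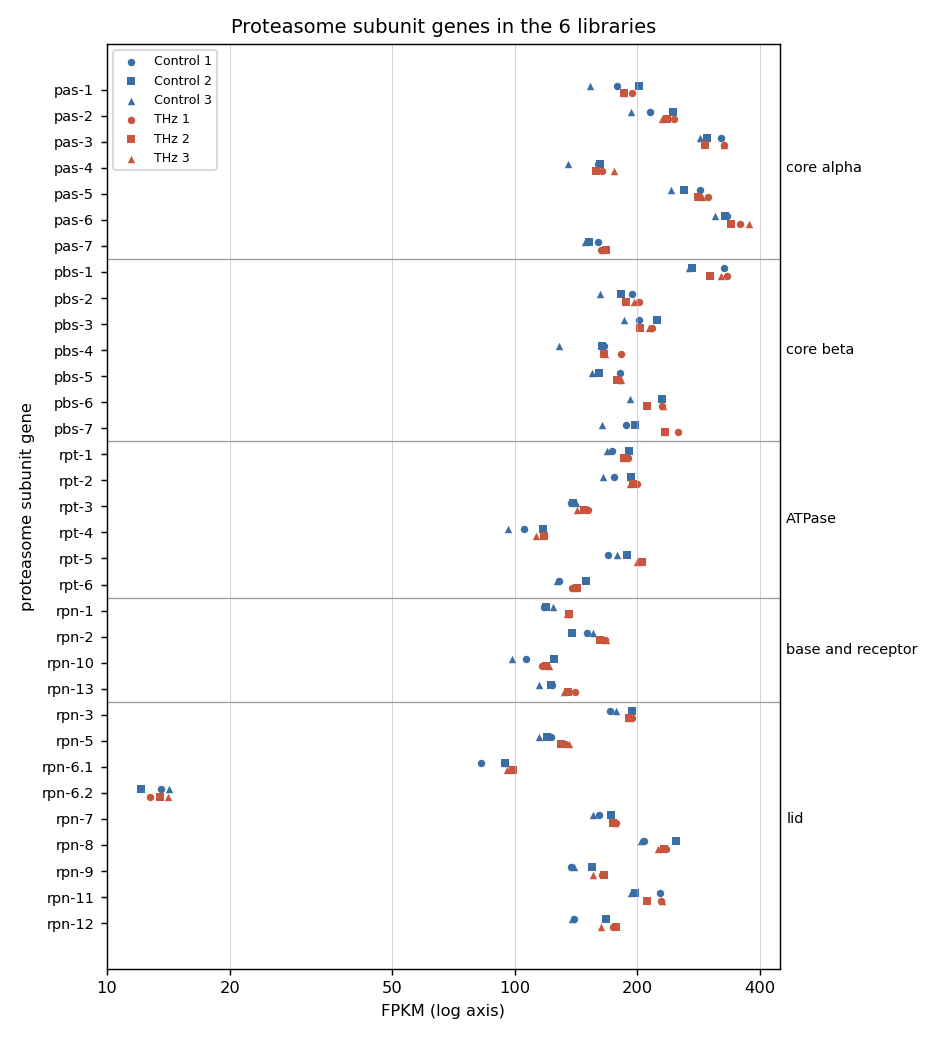
FPKM of each proteasome subunit gene in each library on a log axis, grouped by subassembly; symbols mark the replicate number and colours the group. All genes but rpn-6.2 lie between about 83 and 376 FPKM, and the Control 3 triangles sit at the low end for every core gene.

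Among the 7 alpha subunits, which form the outer rings, the log2 differences ran from 0.07 to 0.14. Of the 7, 2 genes, pas-6 and pas-7, had non-overlapping groups, against 6.44% of all genes with THz above. The share was 14.7% for the others of at least 50 FPKM. The most abundant member of the whole set, pas-6 (chromosome V, 5583161 to 5584343), measured 331, 327 and 311 FPKM in Control 1 to 3 and 357, 338 and 376 FPKM in THz 1 to 3. Its lowest THz library lay just above its highest control. The means were 323 ± 10.8 and 357 ± 18.8 FPKM (SD, n = 3 each). On the log2 scale the difference was 0.14 ± 0.08 (SE; limma adjusted p = 0.827). At the other end, pas-3 (chromosome I, 5105110 to 5106204) measured 321, 297 and 284 FPKM in control and 327, 293 and 326 FPKM in THz libraries. Here the groups overlapped, and the difference of 0.07 ± 0.09 was smaller than its error (limma adjusted p = 0.881). The remaining alpha genes pas-1, pas-2, pas-4 and pas-5 overlapped as well.

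The beta subunits pbs-1, pbs-2 and pbs-5 are the homologs of those that carry the caspase-like, trypsin-like and chymotrypsin-like sites in yeast and mammals. pbs-1 (chromosome IV, 1708804 to 1709745) measured 327, 272 and 268 FPKM in control and 331, 301 and 321 FPKM in THz libraries. pbs-2 (chromosome I, 12967216 to 12968280) measured 194, 182 and 162 against 202, 187 and 196 FPKM. For pbs-5 (chromosome I, 14719167 to 14720477) the values were 182, 161 and 155 against 180.0, 179 and 183 FPKM. In all 3 genes Control 1 reached into the THz range while Control 2 and Control 3 lay below it. The log2 differences of these catalytic subunits were 0.14, 0.12 and 0.12, each with an SE of 0.08 to 0.10 and a limma adjusted p of 0.828. Their 95% intervals ran from -0.09 at the lowest to 0.37 at the highest.

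Among the beta genes without a proteolytic site in those species, pbs-7 stood apart. It lies on chromosome I from 8695205 to 8696376 and measured 188, 197 and 163 FPKM in Control 1 to 3 and 252, 234 and 234 FPKM in THz 1 to 3. Even the lowest THz library exceeded the highest control by more than the counting error of at most 1.71%. Its log2 difference was 0.39 ± 0.09 (SE), with a 95% interval of 0.18 to 0.61 and an unadjusted p of 0.00276, rank 52 of 12174 genes. The adjusted p was 0.612 with limma on all 6 libraries, so the gene was not called. It was 0.0380 without Control 2. Weighting each library by its fit gave 0.00781, with weights of 4.29, 0.18 and 0.29 on Control 1 to 3. In that fit 13.7% of all genes, or 27.0% of the others of at least 50 FPKM, were called higher. The weighted voom fit gave 0.0498, with 0.0367% called higher. Over all alternatives it ran from 0.00781 to 0.999.

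Set against the other beta genes of the same library, pbs-7 was also higher after exposure. The log2 value of pbs-7 minus the mean of the other 6 beta genes was -0.17, -0.03 and -0.11 in the controls and 0.20, 0.20 and 0.13 in the THz libraries. The 2 groups did not overlap on this within-library measure either; the gene was picked out after its values were seen, so no test is given. The annotation places 70 exon bases of the neighbour K07A12.5 over pbs-7 on the same strand, and that gene measured 2.31 to 3.84 FPKM in all libraries. In contrast, pbs-6 (chromosome III, 8243122 to 8244092) had the largest unadjusted p of the beta genes, at 229.8, 229.6 and 192 FPKM in control and 229, 211 and 231 FPKM in THz libraries. Its Control 3 value alone lay below the THz range.

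The 6 ATPases of the base form the ring that unfolds substrates and opens the core gate. Their log2 differences ran from 0.06 to 0.19. Of the 6, rpt-3 and rpt-5 had non-overlapping groups, against 6.44% of all genes and 14.7% of the others of at least 50 FPKM. rpt-5 (chromosome I, 5741868 to 5743571) measured 169, 189 and 178 FPKM in control and 206, 205 and 200.1 FPKM in THz libraries. The 3 THz values were close together and all above the controls, with means of 179 ± 9.72 and 204 ± 3.16 FPKM and a log2 difference of 0.19 ± 0.07 (SE; limma adjusted p = 0.827). rpt-6 (chromosome III, 12370456 to 12372625) measured 129, 149 and 127 against 138, 142 and 141 FPKM. Control 2 was its highest library of all, and the difference was 0.06 ± 0.08 (limma adjusted p = 0.888).

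The remaining base subunits and the ubiquitin receptors had the largest median difference of the 5 subassemblies, 0.16 on the log2 scale over 4 genes. Of the 4, 3 had non-overlapping groups, against 6.44% of all genes and 14.7% of the others of at least 50 FPKM. rpn-1, a large scaffold that docks ubiquitin-carrying shuttle proteins (chromosome IV, 6906415 to 6909913), measured 118, 119.7 and 124 FPKM in control and 136, 136 and 134 FPKM in THz libraries. Both groups were tight, at 121 ± 2.92 and 135 ± 0.851 FPKM (SD, n = 3), a log2 difference of 0.17 ± 0.06 (SE; limma adjusted p = 0.827). rpn-13, a ubiquitin receptor held by the scaffold rpn-2 (chromosome III, 6340115 to 6341925), measured 123, 123 and 115 against 141, 135 and 132 FPKM, a log2 difference of 0.18 ± 0.07. rpn-2 itself had a difference of 0.16 ± 0.07 and non-overlapping groups.

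The other ubiquitin receptor, rpn-10 (chromosome I, 10730712 to 10732448), overlapped. It measured 107, 125 and 98.6 FPKM in control and 116, 119.7 and 121 FPKM in THz libraries, so that Control 2 was again the highest library. The log2 difference was 0.12 ± 0.10 (SE; limma adjusted p = 0.828). An exon of the opposite-strand gene B0205.12, which measured at most 1.52 FPKM, shares 32 bases with it.

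In the lid, log2 differences ran from 0.02 to 0.21. Of its 9 genes, rpn-5, rpn-6.1, rpn-7 and rpn-9 had non-overlapping groups. The shares with THz above were 6.44% of all genes and 14.7% of the others of at least 50 FPKM. rpn-11, the deubiquitinase of the lid (chromosome II, 4043059 to 4044330), measured 227, 198 and 193 FPKM in control and 228, 211 and 229 FPKM in THz libraries. As for the catalytic beta genes, Control 1 lay within the THz range and the other controls below it, and the difference was 0.12 ± 0.09 (limma adjusted p = 0.828). rpn-5, a structural lid subunit (chromosome II, 4696419 to 4698427), had the smallest unadjusted p of the lid genes, 0.0512 with limma. It measured 123, 120.0 and 115 against 133, 129.9 and 136 FPKM. rpn-12, named after its values were seen, had the largest lid difference, 0.21 ± 0.09, but its groups overlapped, since Control 2 at 168 FPKM lay above THz 3 at 163 FPKM.

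The paralogs rpn-6.1 and rpn-6.2 encode 2 versions of 1 lid subunit that contacts the core particle; in worms, added rpn-6.1 raises proteasome activity and stress resistance. rpn-6.1 (chromosome III, 6959110 to 6962027) measured 82.8, 94.6 and 95.4 FPKM in control and 99.1, 99.2 and 95.7 FPKM in THz libraries. Its groups just failed to overlap, with 95.4 FPKM in Control 3 and 95.7 FPKM in THz 3. rpn-6.2 (chromosome III, 8999828 to 9001973) measured 13.5, 12.1 and 14.2 against 12.8, 13.5 and 14.1 FPKM, with no separation at all. Its log2 difference was 0.02 ± 0.12 (95% interval -0.26 to 0.30; limma adjusted p = 0.979). The log2 value of rpn-6.1 exceeded that of rpn-6.2 by 2.53 to 2.86 in the 6 libraries. How many reads the 2 copies could share was not tested.

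Compared with each other, the subassemblies differed little in their THz against Control differences, with medians of 0.13 for alpha, 0.12 for beta, 0.11 for ATPase, 0.16 for base and receptor and 0.11 for lid genes. The mean log2 level of the core genes exceeded that of the regulatory genes by 0.77, 0.67 and 0.58 in Control 1 to 3 and by 0.71, 0.64 and 0.71 in THz 1 to 3. These ranges overlapped. The subassemblies differed more in which control was low. Control 3 was the lowest of the 6 libraries for all 14 core genes, and for 11 of the 19 regulatory genes, where it was lowest for 15.8% of all genes tested. A THz library was the lowest for 0 members, against 32.2% of all genes tested and 12.4% of the other genes of at least 50 FPKM. Among other genes of at least 50 FPKM, Control 3 was lowest for 35.1% of those of 800 to under 1100 bases and for 14.1% of those of 1100 bases or more.

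Leaving out Control 3 brought the alpha median to 0.05 and the beta median to 0.05, while leaving out Control 1 brought the beta median to 0.19. Control 2 was above Control 1 for all 6 ATPase genes, with a median log2 difference of 0.15 between these controls, and leaving it out brought the ATPase median to 0.17. Gene length also differed between the particles, although it did not track the difference between these controls throughout. The core genes have a median length of 918 bases and the regulatory genes 1484 bases. Over other genes of at least 50 FPKM, the median log2 difference of Control 2 from Control 1 was -0.02 for genes under 1000 bases, 0.07 for those of 1000 to under 1300 bases, 0.10 for those of 1300 to under 1800 bases and 0.05 for longer ones. The 4 base and receptor genes, with a median length of 2172 bases, had a median of 0.0046 between these controls, with Control 2 above Control 1 in 2 of 4. With a trend on length taken out of every library, 33 genes were higher in THz, with a median of 0.14, and 0 were called. The median over all genes was 0.02 in that setting. Groups did not overlap, with THz above, at 11 members, against 9.57% of all genes and 19.9% of the others of at least 50 FPKM.

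**Figure D3:**
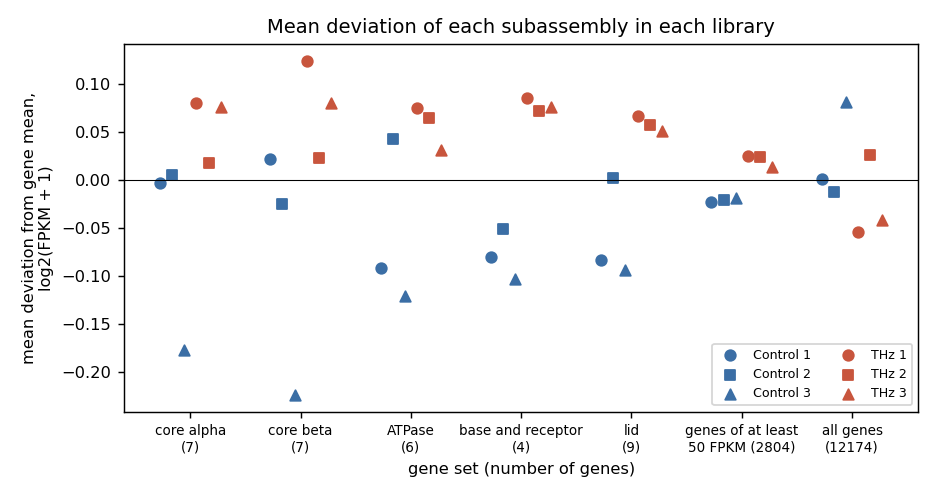
Mean deviation from the gene mean on the log2(FPKM + 1) scale in each library, for the 5 subassemblies, for genes of at least 50 FPKM and for all genes tested. Control 3 lies lowest for both core groups, at -0.18 for alpha and -0.22 for beta genes, and the THz libraries lie above 0 in every subassembly.

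The medians of 11 other gene lists around the proteasome lay between -0.02 and 0.12 on the log2 scale, although single genes differed by more; limma called none of their genes. Of 11 proteasome-associated factors, 10 were higher in THz, with a median log2 difference of 0.09. Among all genes tested 50.5% were higher, and among the others of at least 50 FPKM 71.9%. The assembly chaperone gene psmd-9 had the smallest unadjusted p of that list. Its means were 33.9 ± 2.38 and 41.2 ± 1.63 FPKM (SD, n = 3) with no overlap, a log2 difference of 0.27 ± 0.09 (SE; limma adjusted p = 0.827). The gene rad-23, which encodes a shuttle that brings ubiquitinated proteins to the proteasome, also had non-overlapping groups, at 249 ± 18.7 and 277 ± 7.58 FPKM (SD, n = 3). In this list 2 of 11 genes had THz above all controls, against 6.44% of all genes and 14.7% of the others of at least 50 FPKM.

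Of the 7 genes of the pathway that makes and limits active SKN-1, 5 were higher and 2 lower, with a median of 0.07. The shares higher were 50.5% of all genes and 71.9% of the others of at least 50 FPKM. skn-1 itself measured 138, 127 and 159 FPKM in control and 155, 165 and 164 FPKM in THz libraries. Control 3 lay within the THz range, and the value sums all isoforms of the gene. wdr-23, which encodes an adaptor that leads to SKN-1 degradation, was lower in all 3 THz libraries than in any control, at 89.2 ± 2.997 against 79.3 ± 2.16 FPKM. Its log2 difference was -0.17 ± 0.07 (SE; limma adjusted p = 0.827). sel-11, an ubiquitin ligase gene of the endoplasmic reticulum, lay above all controls, at 108 ± 6.45 against 121 ± 3.07 FPKM. Of the 7 genes, 2 lay above all controls and 1 below, against 6.44% and 7.33% of all genes. The share above was 14.7% for the others of at least 50 FPKM.

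Upstream of the proteasome, 17 of 23 genes for ubiquitin and its activating and conjugating enzymes were higher, with a median of 0.09. So were 26 of 32 genes of cullin-RING ubiquitin ligases, with a median of 0.10. Shares higher were 50.5% of all genes and 71.9% of the others of at least 50 FPKM. ubc-9, which encodes the conjugating enzyme for the ubiquitin-like SUMO, averaged 241 ± 10.02 FPKM in control and 278 ± 5.89 FPKM in THz libraries. The cullin adaptor gene skr-2 averaged 164 ± 11.1 and 189 ± 5.26 FPKM. Both had non-overlapping groups. Groups did not overlap, with THz above, at 5 of the 23 and 3 of the 32 genes of these lists, against 6.44% of all genes. For the others of at least 50 FPKM the share was 14.7%. In the cullin-RING list 1 gene lay below all controls. Of the CDC-48 genes, whose complex extracts ubiquitinated proteins, 13 of 15 were higher and 3 had non-overlapping groups with THz above. cdc-48.1 measured 282, 273 and 278 FPKM in control and 313, 313 and 315 FPKM in THz libraries, and was thus tight and separate in both groups (log2 difference 0.17 ± 0.07; limma adjusted p = 0.827).

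The 2 complexes built like the lid differed by a similar amount. The 6 COP9 signalosome genes matched in the table were all higher, with a median of 0.12. So were the 13 matched genes of the translation initiation factor eIF3, with a median of 0.11. Among all genes 50.5% were higher, and among the others of at least 50 FPKM 71.9%. The list names csn-7, csn-8 and eif-3.M matched no gene under those names. The gene cif-1 was counted in the eIF3 list only, with a log2 difference of 0.04. csn-5, the catalytic subunit of the COP9 signalosome, averaged 64.2 ± 2.60 and 70.9 ± 0.753 FPKM, with no overlap. Groups did not overlap, with THz above, at 2 of the 6 COP9 and 4 of the 13 eIF3 genes. The shares were 6.44% of all genes and 14.7% of the others of at least 50 FPKM. The CCT chaperonin genes were higher in 8 of 8 cases, with a median of 0.05. Cytosolic ribosomal protein genes lay near 0, with 46 of 78 higher and a median of 0.01. Among the other branches of protein quality control, autophagy genes divided into 12 higher and 14 lower (median -0.02), and heat shock genes into 7 higher and 6 lower (median 0.04). The heat shock differences ran from -0.89 to 0.16. Of the 13 tested, 3 had all THz libraries below all controls and 2 above, against 7.33% and 6.44% of all genes. The small heat shock gene hsp-16.2, which has close copies, measured 10.2, 20.5 and 8.07 FPKM in control and 7.70, 5.13 and 5.53 FPKM in THz libraries. No list is shown to differ from another by these counts.

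**Figure D4:**
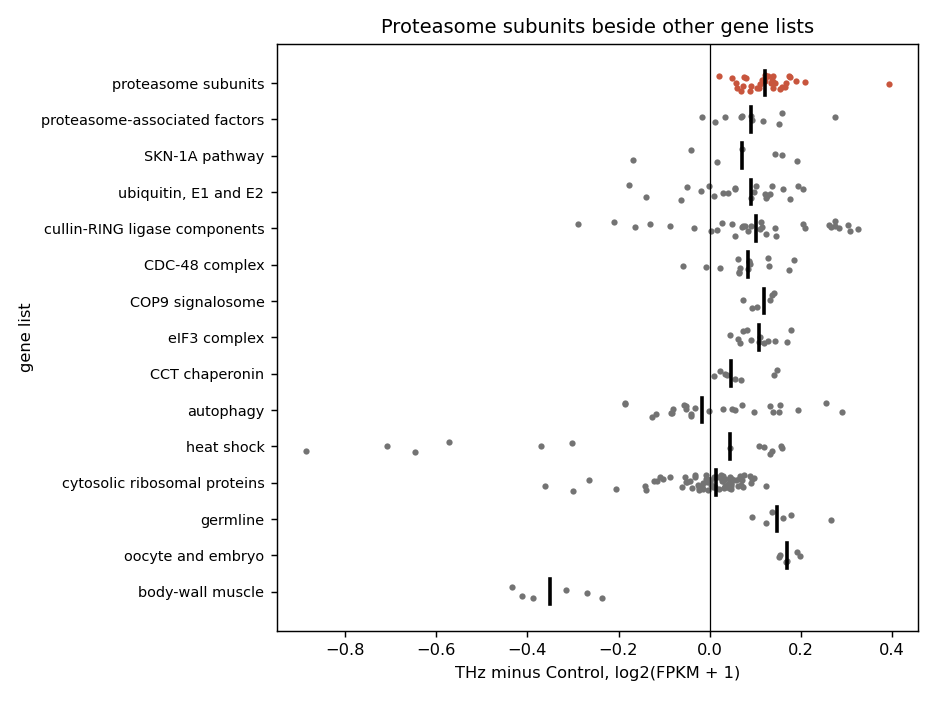
Log2 difference between THz and Control for each tested gene of the proteasome, of 11 other gene lists and of 3 marker lists; black bars are medians and points are spread vertically for visibility. Proteasome, COP9, eIF3 and CCT genes all lie above 0, with medians of 0.12, 0.12, 0.11 and 0.05. The germline and oocyte markers lie above 0 as well.

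Mean levels of some tissue markers differed between the groups, although limma called none of these genes. The summed level of 6 germline markers was 1272 to 1365 FPKM in control and 1469 to 1491 FPKM in THz libraries, and that of 6 oocyte and embryo markers 3082 to 3364 and 3490 to 3749 FPKM. All 12 of these genes had a higher mean in THz, with median log2 differences of 0.15 and 0.17. In each list 4 of 6 had non-overlapping groups with THz above, against 6.44% of all genes. Among the others of at least 50 FPKM, 71.9% were higher and 14.7% had non-overlapping groups. The 6 body-wall muscle markers were all lower, with overlapping sums of 1464 to 2096 and 1280.4 to 1516 FPKM, and a median log2 difference of -0.35. THz lay below all controls at 3 of 6 muscle, 3 of 6 neuron and 1 of 3 pharynx markers, against 7.33% of all genes. The neuron markers were lower in 5 of 6 cases, and their sums of 299.2 to 314 and 288 to 298.4 FPKM only just failed to overlap. Those sums rested mostly on 1 marker with a mean of 249.9 FPKM, where the median neuron marker had 6.85 FPKM. The pharynx markers were lower in 3 of 3 cases (97.9 to 111 and 76.0 to 93.9 FPKM, not overlapping). The intestine markers were lower in 5 of 5 cases, with overlapping sums of 494 to 547 and 419 to 556 FPKM.

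The part of these markers in the proteasome differences was not tested. In RNA from whole worms, fewer cells of a type and less RNA per cell cannot be told apart. Epidermis and moulting markers summed to 37.8 FPKM in Control 2, 159 FPKM in Control 3 and 59.3 to 84.1 FPKM in the THz libraries. The yolk markers summed to 14091 to 18105 FPKM and the sperm markers to 14.5 to 47.6 FPKM over the 6 libraries, both with overlapping groups. Of all the markers, 1 sperm gene, ssp-9, was at 0 in every library. With limma, 0 genes of the 9 marker lists and of the 11 other lists had an adjusted p under 0.05. At an unadjusted p under 0.05, 7 genes of the other lists were higher and 4 lower, of which 3 were heat shock genes. Of all 12174 genes tested, 226 were higher and 488 lower at that level. Among the markers at that level, 3 of 6 muscle, 2 of 6 neuron and 1 of 3 pharynx markers were lower. Higher were 1 of 6 germline and 1 of 6 oocyte and embryo markers.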

How the data were processed

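FPKM values for 6 whole-worm libraries were analysed as the authors deposited them, 1 value per gene and library, with gene length, position and name. Per the submitters' processing notes, STAR, HTSeq 0.5.4, DESeq 1.10.1 and build WBcel235 were used, with no role or order given; libraries were made with a TruSeq v2 kit, per the labels' protocols. FPKM keeps no raw depth and is relative, so a change in a few abundant genes moves the scale of a library.

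A gene was kept if 3 or more libraries reached 1 FPKM (12174 of 20845 with any value; all 33 members). Values were tested as log2(FPKM + 1) by limma 3.58.1 in R 4.3.3, trend option on, with group as the only term. Tests were two-sided, and p-values were adjusted by the Benjamini-Hochberg method across the 12174 genes, with a threshold of 0.05. Differences are on that scale. An exact permutation test of 3 against 3 libraries cannot go below 0.1, so none is given. Reads were recovered as whole multiples of 1 step of FPKM times length. With a tolerance of 0.05 reads, 88.6% of values came out whole, so they serve only for depth and for voom. Counting errors cover counting only. The test was run on simulated data with the same spread in both groups and with changes larger than any member difference. That run therefore does not show how the test performs on differences of this size in these unequally spread groups.

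Members and lists were chosen with earlier results of these data known, and the class of at least 50 FPKM after seeing them. Members with full values were the catalytic and receptor subunits, rpn-11, the rpn-6 paralogs, the extremes of level, and the smallest and largest p in each subassembly; at most 3 genes of smallest p were named per list. List names found in no table were left out. Alternatives were other pseudocounts, filters, scalings, limma settings, library weights, the replicate block, voom and leaving out each library; removal of a length trend and voom with library weights were added after seeing the data. Positions are those of the deposited table. Figures were drawn with matplotlib 3.10.9.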

Additional observations from a re-analysis of the deposited data

How the results depend on the processing

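Across 20 alternatives, the median log2 difference of the 33 genes stayed above 0 and at least 30 genes were higher in THz. Called genes numbered 0 except for 11 with library weights, where 13.7% of all genes and 27.0% of the others of at least 50 FPKM were called higher, 1 with voom and library weights, and 0 to 1 when each library was left out (pbs-7 without Control 2). Members at an unadjusted p under 0.05, all higher in THz, numbered 4 in the reported fit. They numbered 19 with library weights, where 22.9% of all genes and 39.1% of the others of at least 50 FPKM were higher at that level. With voom and library weights there were 14, against 12.5% and 26.7%. There were 2 after upper quartile scaling (1.45% and 2.85%) and 1 without the trend (1.15% and 0.613%). Leaving out each library gave 1 to 11, with 11 without Control 2 (6.04% of all genes and 334 of the other 2772). Members with non-overlapping groups numbered 6 after upper quartile scaling (5.4% and 304 of 2772) and 12 to 23 without each library, where the shares ran from 8.55% to 17.8% of all genes and from 18.2% to 31.7% of the others. The base and receptor median was 0.13 after quantile normalization and 0.13 after upper quartile scaling. The sign turned, never past the threshold, for pbs-1 with library weights (-0.00428), rpn-6.2 after upper quartile scaling (-0.00801), and when a library was left out for pas-1 (-0.0121 to 0.19), pbs-3 (-0.00723 to 0.13), pbs-6 (-0.0370 to 0.0917) and rpn-6.2 (-0.0389 to 0.0653). With library weights the alpha and beta medians were 0.08 and 0.03. These weights were 4.29, 0.18 and 0.29 for Control 1 to 3 and 1.32, 0.93 and 3.59 for THz 1 to 3. The control side of that fit thus rested largely on Control 1. Causes of the shifts in this section were not tested.

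Same-numbered libraries did not deviate together (correlations of -0.01, -0.14 and 0.03), and differently numbered ones correlated at -0.23 to 0.21. With deviations taken from means of 3 libraries, these values cannot tell whether the numbers pair the libraries. With the replicate block 0 genes were called and 1 had an unadjusted p under 0.05, against 0.969% of all genes higher at that level.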
